A study of Mus musculus with 8 samples.

Results

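The comparison set the 6 libraries of 3 knockout genotypes of the miRNA pathway against the 2 wild-type libraries of the same series. All 8 libraries hold polyadenylated RNA of the E14 line, mouse embryonic stem cells with a 129/Ola background. The cells were grown for 2 weeks or more in 2i, which is N2B27 medium with LIF, the GSK3 inhibitor CHIR99021 and the MEK inhibitor PD0325901. The genotypes are labelled Dgcr8_KO, Drosha_KO and Ago1_2_KO (a knockout of Ago1 and Ago2 together), with WT as the control, and each has 2 libraries. They are written here as Dgcr8 KO, Drosha KO, Ago1_2 KO and WT, with the library number after the name. Whether 2 libraries of a genotype are separate clones or cultures is not in the labels, so p-values measure only the spread between these samples, which may be technical. Of 16388 genes with enough counts to be tested, 3485 (21.3%) had all 6 KO libraries above both WT libraries, or all 6 below, in CPM (counts scaled to library size). Of these, 1815 (11.1% of the genes tested) were also called, that is, had an adjusted p under 0.05 in edgeR's quasi-likelihood test of the mean of the 3 KO genotypes against WT. These 1815 genes are named concordant below.

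MicroRNAs are short RNAs that guide Argonaute proteins to messenger RNAs, which are then silenced. DROSHA, a nuclease, and DGCR8, its RNA-binding partner, form the Microprocessor that cuts the primary transcripts in the nucleus. AGO1 and AGO2 are Argonaute proteins, and TNRC6 proteins link them to the enzymes that shorten the poly(A) tail. In mouse embryonic stem cells the miR-290 family is among the most abundant miRNAs and is known for its part in the short G1 phase of these cells. The 3 knockouts therefore break the same pathway at its nuclear and its cytoplasmic step.

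Total counts per library lay between 13229771 and 26333907. Between the libraries of 1 genotype, 580 genes were more than 2-fold apart in Dgcr8 KO, 2250 in Drosha KO and 707 in Ago1_2 KO, against 2427 in WT. WT 1 and WT 2 thus differed from each other at more genes than the libraries of any KO genotype did. Across 16315 genes with an annotated transcript, the log2 ratio of WT 1 to WT 2 followed transcript length with a Spearman correlation of 0.42, where genes are not independent replicates. For library 1 against library 2 it had the same sign in Dgcr8 KO (0.26), Drosha KO (0.22) and Ago1_2 KO (0.19). The 8 embryonic stem cell markers Pou5f1, Sox2, Nanog, Zfp42, Esrrb, Klf4, Tfcp2l1 and Dppa5a summed to 6086 to 8495 CPM in KO libraries and to 7278 and 8933 CPM in WT libraries. EdgeR, DESeq2 and limma-voom each called 0 of the 8, where edgeR called 14.6% of all genes tested. In edgeR 2 had an unadjusted p under 0.05, beside 5703 of all 16388 genes tested. Their log2 fold changes lay between -0.71 and 0.38. The median was 0.06, and it was 0.14 without WT 1 and 0.13 without WT 2. With an offset for transcript length, chosen after the data were seen, 2 were concordant and higher (4.95% of all genes tested).

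The targeted genes were read first. Dgcr8 had 392 and 370 CPM in Dgcr8 KO, 304 and 234 CPM in Drosha KO and 91.2 and 82.9 CPM in Ago1_2 KO, against 78.1 and 70.5 CPM in WT. It was higher in every KO library and was concordant, with a log2 fold change of 1.48 ± 0.17 (SE, edgeR adjusted p 0.00206), and its level differed among the KO genotypes (adjusted p 0.000952). Drosha had 254 and 282 CPM in Dgcr8 KO, 51.2 and 82.4 CPM in Drosha KO and 339 and 361 CPM in Ago1_2 KO, against 278 and 266 CPM in WT. It was low in the 2 Drosha KO libraries alone, as their label says. Ago2 had 522 and 396 CPM in Dgcr8 KO, 1070 and 809 CPM in Drosha KO and 216 and 195 CPM in Ago1_2 KO, against 464 and 227 CPM in WT. Ago1 had 188 and 151 CPM in Dgcr8 KO, 295 and 170 CPM in Drosha KO and 160 and 87.8 CPM in Ago1_2 KO, against 84.5 ± 30 CPM in WT (SD, n = 2). Its mRNA was thus not low in the libraries labelled Ago1_2_KO, whose mean was 124 CPM (log2 fold change 0.56 ± 0.36, SE, adjusted p 0.301). Neither Argonaute gene was called in the mean of the KO genotypes (log2 fold change 0.37 and adjusted p 0.351 for Ago2, 1.01 and 0.0568 for Ago1). An edit can spare the transcript, so these levels do not check the labels Dgcr8 KO and Ago1_2 KO.

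Across all genes tested, 2388 (14.6%) were called in the mean of the 3 KO genotypes against WT. Of these 1064 (6.49%) were higher and 1324 (8.08%) were lower, and 5703 genes had an unadjusted p under 0.05. Concordant genes numbered 842 higher (5.14%), with a median log2 fold change of 1.32, and 973 lower (5.94%), with a median of -1.08. The change was over 2-fold in each KO genotype for 338 of the 842 and for 293 of the 973. Next to the rule's limit, Pias3 (36.4 to 77.0 CPM in KO libraries, 31.0 and 36.2 CPM in WT) was just inside on the higher side and Nod1 (3.43 to 10.6 CPM in KO libraries, 3.44 and 2.37 CPM in WT) just outside. On the lower side, Denr (51.1 to 101 CPM in KO libraries, 101 and 111 CPM in WT) was just inside and Chkb (26.3 to 58.6 CPM in KO libraries, 58.6 and 90.2 CPM in WT) just outside.

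The number of concordant genes, 1815 with all libraries, moved with single libraries. Leaving out Dgcr8 KO 1 gave 661 and Dgcr8 KO 2 gave 833. Leaving out Drosha KO 1 gave 1654 and Drosha KO 2 gave 2985, and for Ago1_2 KO 1 and Ago1_2 KO 2 the numbers were 766 and 764. Leaving out WT 1 gave 4489 genes and leaving out WT 2 gave 644, the extremes of the 8 fits. In a fit with a single mean for the 6 KO libraries, 32 genes were concordant and higher and 88 lower (0.732% of genes tested). The genes that stayed concordant whichever of the 8 libraries was left out numbered 370, of which 190 were higher and 180 lower. They are called concordant in every left-out fit below.

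The 15 higher genes with the widest gap between the lowest KO and the highest WT library included Arhgef26, Tmem92, Zscan4b, Zscan4f, Tll1, Ttn, Usp17lc, Zscan4d, Zic5, Cyyr1, Zic2, Tgtp1 and Ak7. The log2 fold changes of the 15 lay between 2.12 and 5.78. Arhgef26, which encodes an exchange factor for small GTPases (ENSMUSG00000036885.14, GRCm38 chromosome 3, 62338344 to 62462221), had 21.9 and 21 CPM in Dgcr8 KO, 27.3 and 17.6 CPM in Drosha KO and 28.9 and 48.0 CPM in Ago1_2 KO, against 2.77 and 2.81 CPM in WT. The gap between its KO and WT libraries follows from how the gene was chosen, and the log2 fold change was 3.24 ± 0.31 (SE, edgeR adjusted p 0.00097). Ttn, the gene of the giant muscle protein titin, had 147 and 103 CPM in Dgcr8 KO, 241 and 84.5 CPM in Drosha KO and 138 and 132 CPM in Ago1_2 KO, against 21.6 and 11.9 CPM in WT (3.07 ± 0.44, adjusted p 0.00393). Its level did not differ detectably among the KO genotypes (adjusted p 0.785).

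Zic2 and Zic5, neighbouring genes on chromosome 14 that encode zinc finger transcription factors, also rose, and no difference among the KO genotypes was detected (adjusted p 0.963 and 0.282). Zic2 had 54.4 and 57.1 CPM in Dgcr8 KO, 70.4 and 47.6 CPM in Drosha KO and 51.4 and 61.6 CPM in Ago1_2 KO, against 11.1 and 15 CPM in WT. Its log2 fold change was 2.12 ± 0.23 (adjusted p 0.00155) and that of Zic5 2.25 ± 0.30 (adjusted p 0.00297). By contrast, 10 of the 15 genes differed among the KO genotypes, where 16.9% of all genes tested did. The adenylate kinase gene Ak7 had 18.6 and 16.3 CPM in Dgcr8 KO, 38.3 and 39.1 CPM in Drosha KO and 77.0 and 91.7 CPM in Ago1_2 KO, against 3.33 and 5.76 CPM in WT (3.07 ± 0.26, adjusted p 0.000566). It was lowest in the Dgcr8 KO libraries among the KO libraries. Tll1, the gene of a tolloid-like metalloprotease, had 4.01 and 4.32 CPM in Dgcr8 KO, 11.2 and 12.1 CPM in Drosha KO and 18.6 and 19 CPM in Ago1_2 KO, against 0.734 and 0.919 CPM in WT (3.54 ± 0.29, adjusted p 0.000566). Of the 15, Cyyr1 and the interferon-inducible GTPase gene Tgtp1 lost their call without WT 2 (adjusted p 0.0551 and 0.0572), and the other 13 were concordant in every left-out fit.

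**Figure D1:**
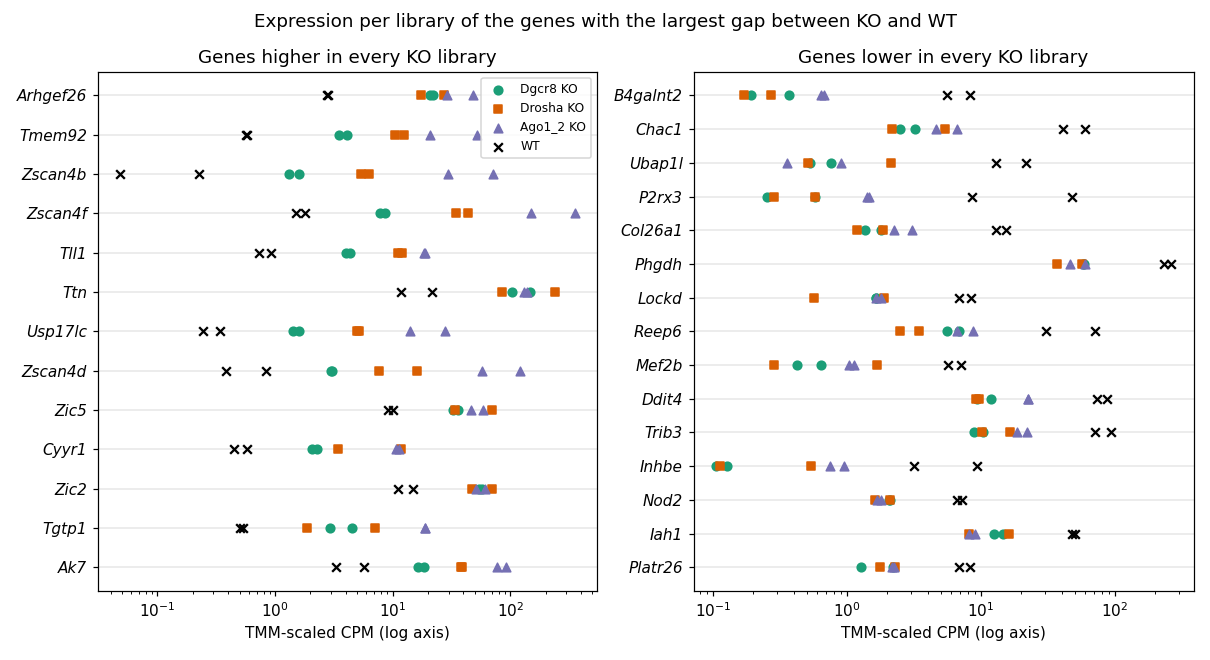
CPM per library on a log axis for the genes with the widest gap in each direction that are named in the text, with a point per library, shape and colour giving the genotype. By the rule that chose these genes, every KO point lies right of both WT points in the left panel and left of them in the right panel. Arhgef26 had 17.6 to 48.0 CPM in KO libraries and 2.77 and 2.81 CPM in WT.

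The 15 lower genes with the widest gap were B4galnt2, Chac1, Ubap1l, P2rx3, Col26a1, Phgdh, Lockd, Reep6, Mef2b, Ddit4, Trib3, Inhbe, Nod2, Iah1 and Platr26, with log2 fold changes between -1.87 and -5.41. All 15 were concordant in every left-out fit, and only Ddit4 differed among the KO genotypes (adjusted p 0.00668). B4galnt2, the gene of a glycosyltransferase (ENSMUSG00000013418.8, chromosome 11, 95865943 to 95914891), had 0.369 and 0.191 CPM in Dgcr8 KO, 0.170 and 0.271 CPM in Drosha KO and 0.637 and 0.673 CPM in Ago1_2 KO, against 8.24 and 5.56 CPM in WT. It fell to 5.15% of WT (-4.28 ± 0.34, adjusted p 0.000566). P2rx3, the gene of an ATP-gated ion channel, had 0.254 to 1.47 CPM in KO libraries, against 47.7 and 8.61 CPM in WT. Its fall depended on which WT library was used: the log2 fold change was -5.41 ± 0.53 (adjusted p 0.00097) with both, -3.69 without WT 1 and -6.16 without WT 2.

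The other genes of this group had closer WT values. The collagen gene Col26a1 had 1.19 to 3.07 CPM in KO libraries, against 15.5 and 13 CPM in WT (-2.94 ± 0.27, adjusted p 0.000687). Iah1, which encodes an esterase, had 8.08 to 16.2 CPM in KO libraries, against 47.9 and 50.2 CPM in WT (-2.13 ± 0.23, adjusted p 0.00148). Nod2, a sensor of bacterial cell wall fragments, had 1.63 to 2.10 CPM in KO libraries, against 6.60 and 7.16 CPM in WT (-1.87 ± 0.26, adjusted p 0.0037). That every KO library lay below both WT libraries in these genes follows from the rule that chose them. The long noncoding RNA genes Lockd and Platr26 fell by 2.32 ± 0.36 and 1.93 ± 0.29 on the log2 scale (adjusted p 0.00582 and 0.00496). Reep6, the gene of a protein that shapes the endoplasmic reticulum, changed by -3.28 ± 0.28 (adjusted p 0.000566) and by -2.53 without WT 1. Chac1, Phgdh, Ddit4, Trib3 and Inhbe belong to the ATF4 response described next.

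ATF4 is a transcription factor whose translation rises when amino acids are short or the endoplasmic reticulum is under stress. Its targets include genes of amino acid synthesis, of amino acid uptake and of tRNA charging, and the factors DDIT3 (CHOP), TRIB3 and CHAC1. Of a list of 47 such genes tested, 39 were called lower and 0 higher, where 8.08% of all genes tested were called lower. Concordant and lower were 37 (5.94% of all genes tested), and 31 were so in every left-out fit. The log2 fold change was negative for all 47 members, with a median of -1.19 beside -0.035 over all genes tested. The list's median was -1.34 in Dgcr8 KO, -1.17 in Drosha KO and -1.11 in Ago1_2 KO, 3 values that share the WT libraries. Against WT, 34 members were called lower in Dgcr8 KO (4.48% of all genes tested), 35 in Drosha KO (4.83%) and 34 in Ago1_2 KO (7.38%). In either direction these comparisons called 6.93%, 11.4% and 17.6% of all genes tested. Of the 37 concordant members 5 differed among the KO genotypes: Ddit4, Pck2, Cbs, Gpt2 and Vldlr. The largest fall was in Dgcr8 KO for 17 of the 37, in Drosha KO for 13 and in Ago1_2 KO for 7.

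Among 13 transcription factors and regulators, 10 were called lower and 8 were concordant. Chac1, whose enzyme degrades glutathione (ENSMUSG00000027313.3, chromosome 2, 119351229 to 119354381), had 3.22 and 2.48 CPM in Dgcr8 KO, 2.16 and 5.35 CPM in Drosha KO and 4.58 and 6.58 CPM in Ago1_2 KO, against 59.5 and 41.3 CPM in WT. It fell to 7.80% of WT (-3.68 ± 0.29, SE, edgeR adjusted p 0.000566), and it was among the genes chosen for a wide gap. Ddit4, an inhibitor of the growth kinase mTORC1 (ENSMUSG00000020108.3, chromosome 10, 59949669 to 59951834), had 11.8 and 9.40 CPM in Dgcr8 KO, 9.19 and 9.65 CPM in Drosha KO and 22.5 and 22.5 CPM in Ago1_2 KO, against 87.1 and 72.9 CPM in WT. It fell to 16.4% of WT (-2.61 ± 0.15, adjusted p 0.000252), and the 2 Ago1_2 KO libraries were the highest of the KO libraries. The pseudokinase gene Trib3 had 8.89 to 22 CPM in KO libraries, against 70.9 and 94.0 CPM in WT (-2.58 ± 0.20, adjusted p 0.000566). Atf3, a factor that ATF4 induces, and Nupr1, a stress-induced chromatin protein gene, changed by -2.38 ± 0.39 and -2.36 ± 0.40 (adjusted p 0.0071 and 0.00759). Ddit3, the gene of CHOP, had 6.97 to 19.3 CPM in KO libraries, against 28.2 and 63.3 CPM in WT (-2.28 ± 0.35, adjusted p 0.00532), and lost its call without WT 2 (adjusted p 0.0692). Atf4 mRNA itself was not called: it had 207 and 254 CPM in Dgcr8 KO, 331 and 423 CPM in Drosha KO and 375 and 480 CPM in Ago1_2 KO, against 344 and 658 CPM in WT (-0.59 ± 0.24, adjusted p 0.119).

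All 13 enzymes of serine, one-carbon, proline, asparagine and related metabolism fell and were concordant, 12 of them in every left-out fit, with a median log2 fold change of -1.41. Phgdh, the first enzyme of serine synthesis (ENSMUSG00000053398.11, chromosome 3, 98313170 to 98339990), had 58.7 and 57.3 CPM in Dgcr8 KO, 36.7 and 56.7 CPM in Drosha KO and 45.8 and 60.1 CPM in Ago1_2 KO, against 232 and 261 CPM in WT. It stood at 21.2% of WT (-2.23 ± 0.18, adjusted p 0.000566), and no difference among the KO genotypes was detected (adjusted p 0.618). The next enzymes of the path, Psat1 and Psph, fell together with it. Psat1 had 167 to 298 CPM in KO libraries, against 837 and 644 CPM in WT (-1.69 ± 0.15, adjusted p 0.000646), and Psph had 19.6 to 25.8 CPM in KO libraries, against 68.9 and 74.2 CPM in WT (-1.69 ± 0.14, adjusted p 0.000566). The mitochondrial one-carbon genes Shmt2 and Mthfd2 changed by -1.13 ± 0.16 and -1.41 ± 0.18 (adjusted p 0.00397 and 0.00263). Asns, the asparagine synthetase gene, had 834 and 942 CPM in Dgcr8 KO, 585 and 839 CPM in Drosha KO and 485 and 497 CPM in Ago1_2 KO, against 1541 and 1729 CPM in WT (-1.27 ± 0.18, adjusted p 0.00363). Aldh1l2, a mitochondrial folate enzyme gene, rested in size on a single WT library: it had 1.27 to 6.51 CPM in KO libraries, against 45.8 and 8.13 CPM in WT (-3.04 ± 0.49, adjusted p 0.00678), and changed by -1.29 without WT 1 and by -3.78 without WT 2.

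Of 6 amino acid transporter genes 4 fell and were concordant in every left-out fit, namely Slc7a11, Slc7a5, Slc3a2 and Slc6a9. Slc7a11, the cystine transporter gene, had 0.445 to 1.87 CPM in KO libraries, against 21.3 and 4.45 CPM in WT (-4.14 ± 0.51, adjusted p 0.00225), and changed by -2.59 without WT 1. The leucine transporter gene Slc7a5 had closer values, with 91.2 to 138 CPM in KO libraries, against 285 and 253 CPM in WT (-1.19 ± 0.14, adjusted p 0.00196). Slc7a1 and Slc7a3, which carry cationic amino acids, were not called, with log2 fold changes of -0.27 ± 0.20 and -0.01 ± 0.26 (adjusted p 0.376 and 0.992).

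Of 12 genes of aminoacyl-tRNA synthetases and tRNA export, 9 fell and were concordant, by smaller amounts, with a median of -0.92. Gars, the glycyl-tRNA synthetase gene, had 345 and 358 CPM in Dgcr8 KO, 342 and 349 CPM in Drosha KO and 355 and 365 CPM in Ago1_2 KO, against 745 and 699 CPM in WT (-1.04 ± 0.14, adjusted p 0.00315). The 6 KO libraries lay within a narrow band at less than either WT library. Sars, which charges serine tRNA, changed by -1.13 ± 0.16 (adjusted p 0.00374). Tars, Iars and the tRNA exportin gene Xpot were not called, with log2 fold changes of -0.62 ± 0.18, -0.29 ± 0.18 and -0.26 ± 0.17 (adjusted p 0.051, 0.268 and 0.307). The 3 secreted factors and receptors tested, Inhbe, Stc2 and Vldlr, fell and were concordant in every left-out fit. Inhbe, an inhibin subunit gene, had 0.106 to 0.955 CPM in KO libraries, against 9.42 and 3.19 CPM in WT (-4.23 ± 0.50, adjusted p 0.00217), and changed by -3.23 without WT 1.

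**Figure D2:**
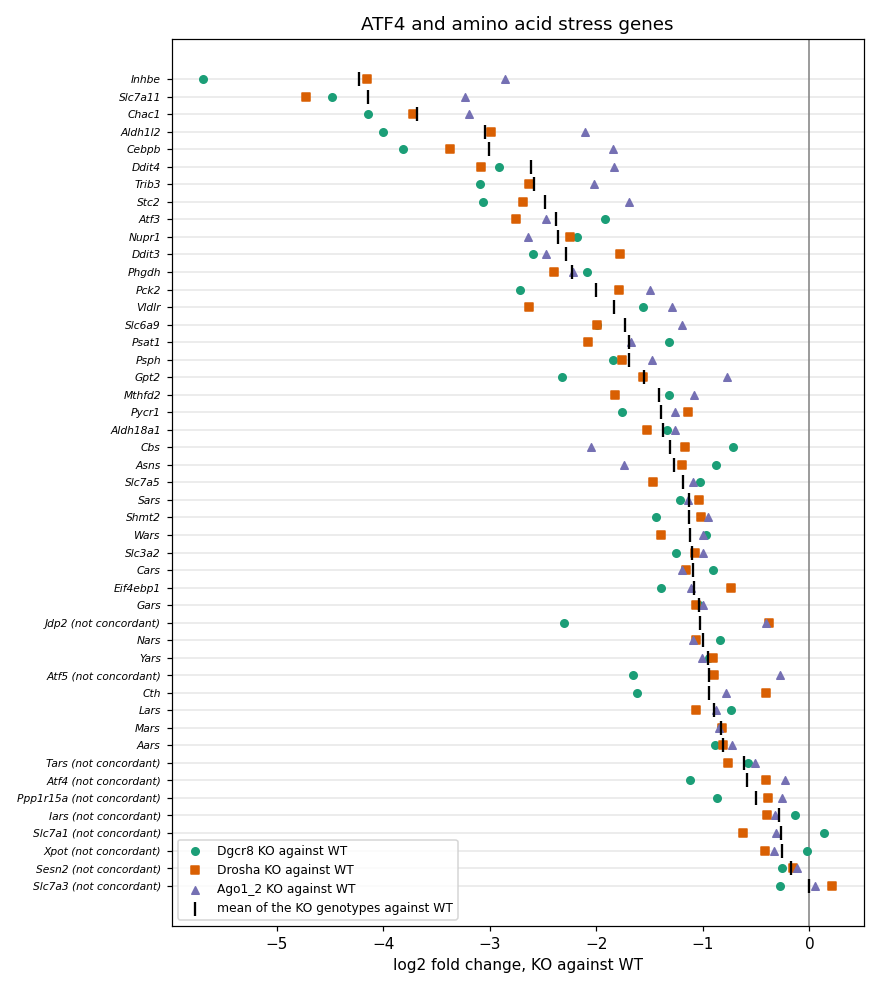
Log2 fold change against WT of the 47 genes of the ATF4 and amino acid stress list in each KO genotype (coloured points), with the mean of the KO genotypes as a bar, ordered by that mean. All 47 bars lie left of 0, and 37 of the genes were concordant.

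The binding element of ATF4 with C/EBP proteins was looked up in the promoters of these genes. The motif searched was TGATGNAA, or TTNCATCA on the other strand, in windows of 250 bases before to 50 bases after the gene start from RefSeq (GRCm38.p6). Of 37 list members with a window, 16 held it (43.2%), against 309 of 11084 genes tested with a window (2.79%) and 1219 of all 27025 windows (4.51%). Among all concordant genes the share was 4.54% of the lower genes and 3.20% of the higher genes. A match is a description and not a bound site. The list was made of known ATF4 targets, so its share reflects how it was chosen and is not a result of these data. The concordant lower genes include list members that hold the motif, and their share without those members was not computed. The 6 windows below come from concordant members, in gene sense, with the element in capitals.
Chac1: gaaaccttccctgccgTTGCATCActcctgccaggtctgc
Atf3: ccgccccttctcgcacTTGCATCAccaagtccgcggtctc
Slc7a11: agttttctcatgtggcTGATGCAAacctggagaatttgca
Pck2: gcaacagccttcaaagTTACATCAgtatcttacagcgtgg
Pycr1: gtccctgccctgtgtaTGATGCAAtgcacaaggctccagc
Inhbe: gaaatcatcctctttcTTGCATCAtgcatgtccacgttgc
They lie at chr2:119351033-119351072 (plus strand), chr1:191183420-191183459 (minus), chr3:50443656-50443695 (minus), chr14:55540147-55540186 (plus), chr11:120643828-120643867 (minus) and chr10:127352006-127352045 (minus), in the order shown.

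Genes of the 2-cell-like state mark the rare embryonic stem cells that take up the transcripts of the embryo at genome activation, among them the Zscan4 and Usp17l families. Of 24 such genes tested, 21 were called higher and 0 lower, where 6.49% of all genes tested were called higher. Of the 24, 6 had 3 WT counts or fewer. They passed the filter on counts only through KO libraries, so their direction was set beforehand and is no support. These 6 are among the counts and medians given here, and 12 of the concordant members had more than 3 WT counts. Concordant were 18 (5.14% of all genes tested), of which 12 in every left-out fit. The median log2 fold change was 4.10, also with BC080695, which had no WT counts, set at its bound of at least 38.1-fold higher over a floor of 3 counts for the WT group. The list moved unequally: its median was 1.95 in Dgcr8 KO, 3.95 in Drosha KO and 5.99 in Ago1_2 KO. All 18 concordant genes differed among the KO genotypes. Against WT, 6 members were called higher in Dgcr8 KO (2.45% of all genes tested), 20 in Drosha KO (6.54%) and 22 in Ago1_2 KO (10.2%). In all 12 concordant members with more than 3 WT counts, the fold change was highest in Ago1_2 KO and lowest in Dgcr8 KO.

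Zscan4f, a DNA-binding protein gene of this state (ENSMUSG00000070828.9, chromosome 7, 11397915 to 11402318), had 7.81 and 8.70 CPM in Dgcr8 KO, 44.1 and 34.9 CPM in Drosha KO and 149 and 354 CPM in Ago1_2 KO, against 1.81 and 1.5 CPM in WT. Each KO genotype thus formed its own level above WT, and the log2 fold change of the mean was 4.71 ± 0.40 (SE, edgeR adjusted p 0.000566, among KO genotypes 0.000441). Zscan4c had 3.38 and 4.51 CPM in Dgcr8 KO, 34.2 and 20.9 CPM in Drosha KO and 94.1 and 214 CPM in Ago1_2 KO, against 1.35 and 0.629 CPM in WT (4.70 ± 0.49, adjusted p 0.00146, and 5.35 without WT 1). Tmem92, a membrane protein gene outside those families, had 3.48 and 4.07 CPM in Dgcr8 KO, 10.5 and 12.6 CPM in Drosha KO and 20.7 and 51.9 CPM in Ago1_2 KO, against 0.564 and 0.580 CPM in WT (4.33 ± 0.46, adjusted p 0.00151). All 5 Zscan4 genes tested were concordant, as were 3 of 5 Usp17l genes, which encode deubiquitinases. Usp17lc had 1.42 and 1.59 CPM in Dgcr8 KO, 4.94 and 5.23 CPM in Drosha KO and 14.0 and 27.8 CPM in Ago1_2 KO, against 0.339 and 0.242 CPM in WT (4.21 ± 0.45, adjusted p 0.00153).

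Members of the Zscan4 and Usp17l families are near-identical copies, so the counts of single members are uncertain. Dppa3 and Zfp750 were not called, with log2 fold changes of 0.08 ± 0.37 and -0.38 ± 0.45 (adjusted p 0.902 and 0.58). The list's median was 4.11 without WT 1 and 3.99 without WT 2. In the fit with a single mean for the 6 KO libraries 0 members were concordant (0.195% of all genes tested were concordant and higher). In bulk RNA, more cells in this state and more of these transcripts per cell cannot be told apart, nor fewer cells of any type from less RNA per cell.

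**Figure D3:**
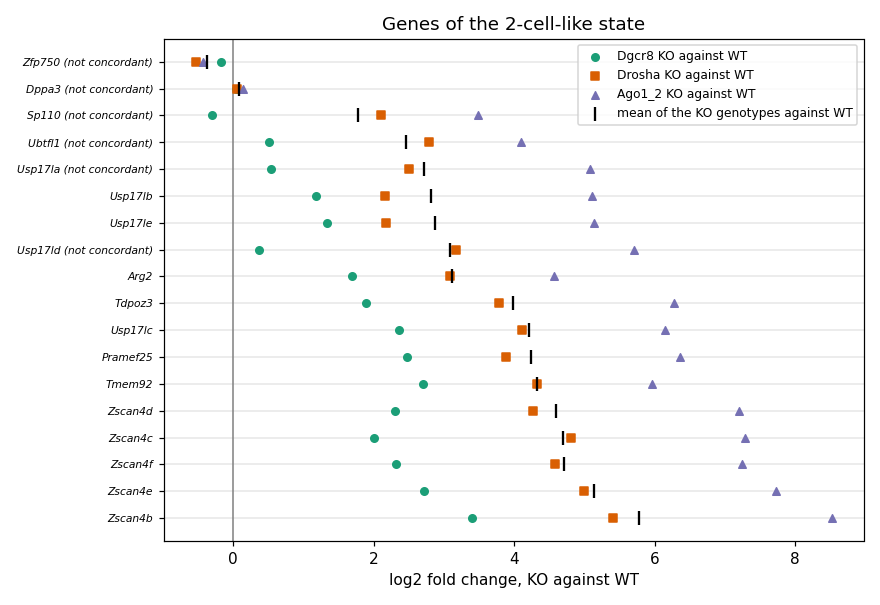
Log2 fold change against WT in each KO genotype for the 18 genes of the 2-cell-like list with more than 3 counts in WT, with the mean of the KO genotypes as a bar. In the 12 concordant genes the points stand in the order Dgcr8 KO, Drosha KO, Ago1_2 KO, as for Zscan4f at 2.32, 4.58 and 7.25.

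Concordant genes could still differ in size among the KO genotypes. Of the 842 higher genes 266 (31.6%) differed among them in edgeR's test of equal KO means, of the 973 lower genes 103 (10.6%), and of all genes tested 2767 (16.9%). WT is not among the means compared, but the WT libraries enter the spread of that fit, and the 2767 became 4185 without WT 1 and 4166 without WT 2. It was 405 and 437 when the first and the second Dgcr8 KO library was left out, and 1321 and 1120 when an Ago1_2 KO library was. The largest change of the 842 higher genes was in Ago1_2 KO for 521, while Drosha KO led for 196 and Dgcr8 KO for 125. For the 973 lower genes Ago1_2 KO led with 470, then Dgcr8 KO with 258 and Drosha KO with 245. The concordant gene with the smallest p among the KO genotypes was Smyd1, the gene of a muscle methyltransferase. It had 5.12 and 4.64 CPM in Dgcr8 KO, 55.0 and 35.5 CPM in Drosha KO and 62.8 and 57.9 CPM in Ago1_2 KO, against 2.60 and 2.85 CPM in WT (3.12 ± 0.25, adjusted p 0.000566, among KO genotypes 0.000397). The 2 Dgcr8 KO libraries lay just above WT and the other KO libraries far above it.

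Annotated miRNA genes, which in polyadenylated RNA read the uncut primary transcript, were counted too. Of 216 tested, 22 were called higher and 1 lower, where 6.49% of all genes tested were called higher and 8.08% lower. Concordant and higher were 9, no larger a share than the 5.14% of all genes tested, and 0 were concordant and lower. Mir24-1 had 5.12 and 4.64 CPM in Dgcr8 KO, 13.8 and 10 CPM in Drosha KO and 0.239 and 0.224 CPM in Ago1_2 KO, against 0.0564 and 0.145 CPM in WT. The Ago1_2 KO libraries were near WT and the Microprocessor knockouts far above (among KO genotypes adjusted p 0.00072), so the concordance of this gene rests on a level near the detection limit in Ago1_2 KO.

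The miR-290 family was looked up next, with the miR-302 and miR-17 families, whose seeds are the same or overlap with it. Mature sequences from RefSeq (GRCm38.p6) are shown to give the seeds whose sites were counted, with bases 2 to 8 in capitals. The first 3 share a seed with miR-302b, while miR-17 is shifted by a base.
mmu-miR-291a-3p: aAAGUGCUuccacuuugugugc
mmu-miR-294-3p: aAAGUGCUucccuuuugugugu
mmu-miR-295-3p: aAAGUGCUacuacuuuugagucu
mmu-miR-302b-3p: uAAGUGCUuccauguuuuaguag
mmu-miR-17-5p: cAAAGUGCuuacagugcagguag
The site of the miR-294 seed, AGCACTT, was present in the longest annotated 3′ UTR of 2321 of 13350 genes tested with such a UTR. The median log2 fold change was 0.20 for genes with the site and -0.06 for the 11029 genes without it, a difference of 0.269. It was 0.22 against -0.09 in Dgcr8 KO, 0.19 against -0.04 in Drosha KO and 0.24 against -0.04 in Ago1_2 KO. Concordant and higher were 10.4% of the genes with the site and 4.43% of those without.

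Genes with the site had longer 3′ UTRs, with a median of 2494 bases against 957 without, and fold changes followed transcript length, as given below. Within 4 bins of genes by UTR length, the medians with and without the site were -0.14 and -0.33 in the shortest, -0.015 and -0.098 in the second, 0.14 and 0.03 in the third, and 0.31 and 0.23 in the longest bin. The difference was 0.086 with an offset for transcript length, 0.134 without WT 2 and 0.408 without WT 1. For the let-7 seed, a family that is low in these cells, the difference was 0.136, and -0.012 with the length offset. For the miR-17 seed it was 0.316, and 0.138 with that offset. The other seeds counted gave differences of similar size: 0.269 for miR-19, 0.276 for miR-92, 0.307 for miR-130 and 0.2215 for miR-292a. With the length offset these 4 were 0.101, 0.075, 0.120 and 0.050.

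Of 24 reported targets of the miR-290 family, 20 held the site. Of the 24, 5 were called higher and 1 lower, with a median of 0.46, and 3 were concordant and higher, where 5.14% of all genes tested were. These were Lefty1, an inhibitor of Nodal, Lats2, a kinase of the Hippo pathway, and Arid4b, a subunit of a histone deacetylase complex. Their sites are shown with 15 bases before and 8 after the seed match, in capitals (GRCm38, GENCODE M21).
Lats2 site 1: gtacagtatggaaagAGCACTTattttgtg
Lats2 site 2: tgtgttgtatctgatAGCACTTgtccacag
Lefty1: ctgcactgtatgcgaAGCACTTacatgtat
Arid4b: agcaggacttgctagAGCACTTtgcactta
They lie at chr14:57691079-57691108 and chr14:57690980-57691009 (minus strand), chr1:180938198-180938227 (plus) and chr13:14197735-14197764 (plus). Lefty1 had 9.18 and 6.04 CPM in Dgcr8 KO, 129 and 15.3 CPM in Drosha KO and 162 and 188 CPM in Ago1_2 KO, against 3.72 and 4.98 CPM in WT (3.39 ± 0.72, adjusted p 0.0185). The Drosha KO libraries were far apart, and the call ended without either WT library (adjusted p 0.0592 and 0.117). Lats2 had 7.60 and 6.99 CPM in Dgcr8 KO, 35.1 and 15.9 CPM in Drosha KO and 13.2 and 13.5 CPM in Ago1_2 KO, against 5.42 and 3.24 CPM in WT (1.65 ± 0.35, adjusted p 0.0186), and its call ended without WT 2 (adjusted p 0.124). Arid4b had 60.3 to 75.1 CPM in KO libraries, against 48.2 and 24.1 CPM in WT (0.92 ± 0.25, adjusted p 0.0376). Its call ended when any of 6 libraries was left out (adjusted p 0.0619 to 0.12). The list member that fell was Txnip, a regulator of glucose uptake, which also holds 2 sites. It had 116 to 192 CPM in KO libraries, against 348 and 206 CPM in WT (-0.83 ± 0.19, adjusted p 0.024), and its call ended when any of 5 libraries was left out (0.0587 to 0.0948).

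Of 27 genes of the miRNA machinery, 4 were called higher and 1 lower, and 3 were concordant: Dgcr8, Tnrc6a and Tnrc6b. Over all genes tested, the shares were 6.49% called higher, 8.08% called lower and 5.14% concordant and higher. The TNRC6 genes, whose proteins recruit deadenylases, rose in the mean of the KO genotypes, but neither was called in Dgcr8 KO alone (adjusted p 0.0942 for Tnrc6a and 0.167 for Tnrc6b). Tnrc6a had 158 to 309 CPM in KO libraries, against 120 and 61.6 CPM in WT (1.25 ± 0.28, adjusted p 0.0223), and Tnrc6b had 84.6 to 240 CPM in KO libraries, against 78.1 and 40.9 CPM in WT (1.33 ± 0.31, adjusted p 0.0232). Their calls ended without WT 2 (adjusted p 0.114 and 0.141) and without some KO libraries, and the list's median was 0.01 with an offset for transcript length, beside 0.37 without it. Lin28a, an RNA-binding protein gene of pluripotent cells, was called lower in the mean but was not concordant. It had 64.5 and 66.0 CPM in Dgcr8 KO, 0.965 and 0.194 CPM in Drosha KO and 1.47 and 0.823 CPM in Ago1_2 KO, against 19.5 and 26.1 CPM in WT.

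Of 20 naive pluripotency genes tested, 1 was called lower (8.08% of all genes tested), the transcription factor gene Gbx2, and none was concordant. With an offset for GC content 3 were concordant and higher (6.42% of all genes tested), and with one for transcript length 4 (4.95%). Of 18 genes of formative and primed pluripotency, which mark the exit from the naive state, 5 were called higher (6.49% of all genes tested) and 2 lower (8.08%), and 3 were concordant and higher (5.14%), namely Zic2, Zic5 and the cadherin gene Cdh2. Zic2 and Zic5 were concordant in every left-out fit. Cdh2 had 4.50 to 10.4 CPM in KO libraries, against 1.75 and 3.68 CPM in WT (1.44 ± 0.41, adjusted p 0.0451), and lost its call without any of 6 libraries (0.0689 to 0.129). Dppa2, a chromatin protein gene known to act upstream of the 2-cell-like state, had 74.5 to 210 CPM in KO libraries, against 45.2 and 37.5 CPM in WT (1.53 ± 0.27, adjusted p 0.00942, and 0.0742 without WT 2). Of 20 genes of Nodal and TGF-beta signalling, 5 were called higher (6.49% of all genes tested) and 0 lower, with a median of 0.59. Of these 3 were concordant (5.14% of all genes tested), among them Lefty1 and the signal transducer gene Smad2 (48.3 to 66.8 CPM in KO libraries, 40.0 and 27.3 CPM in WT, 0.87 ± 0.20, adjusted p 0.0229). The call of Smad2 ended when any of 5 libraries was left out (adjusted p 0.0557 to 0.107 in those fits).

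Of 20 Wnt targets tested, 2 were called higher and 5 lower, but 1 in each direction was concordant, Notum and Tcf7, a share near that of all genes tested (5.14% higher and 5.94% lower). Called were 6.49% of all genes tested higher and 8.08% lower. T, the Brachyury gene of mesoderm, had 49.5 and 63.3 CPM in Dgcr8 KO, 0.340 and 0.0388 CPM in Drosha KO and 0 and 0.0748 CPM in Ago1_2 KO, against 12.6 and 33.1 CPM in WT. Dgcr8 KO lay above WT and the other KO genotypes far below (adjusted p among KO genotypes 0.000217). Sp5, a transcription factor gene, had 34.5 and 37.5 CPM in Dgcr8 KO, 1.02 and 1.05 CPM in Drosha KO and 2.27 and 1.5 CPM in Ago1_2 KO, against 11.2 and 26.5 CPM in WT. The secreted Wnt inhibitor gene Notum had 58.3 to 166 CPM in KO libraries, against 39.8 and 28.1 CPM in WT (1.55 ± 0.33, adjusted p 0.0185, and 0.132 without WT 2).

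Fold changes followed transcript length (Spearman correlation 0.36 over 16315 genes). Over 4 bins of genes by transcript length, the median log2 fold change was -0.39, -0.18, 0.02 and 0.32 from the shortest to the longest bin. Concordant and higher were 83, 133, 194 and 426 genes in these bins, and concordant and lower 364, 340, 188 and 78. The Spearman correlation with length was 0.15 for the mean of the KO libraries against WT 1 and 0.44 against WT 2, beside 0.42 for WT 1 against WT 2 (descriptions over the same genes). Within the KO genotypes, library 1 against library 2, it was 0.19 to 0.26. With an offset for transcript length, chosen after the data were seen, 1295 of the 1815 concordant genes stayed concordant with the same sign and 1 had the other sign.

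Ribosomal protein genes, which have short transcripts, were lower too, and the part of transcript length in their values was not tested. All 30 tested had negative log2 fold changes, with a median of -0.79, and 10 were called and concordant, where 5.94% of all genes tested were concordant and lower. Rplp1, a stalk protein gene, had 407 to 702 CPM in KO libraries, against 777 and 2034 CPM in WT (-1.41 ± 0.29, adjusted p 0.0167), and changed by -0.54 without WT 2. Rpl7, of the large subunit, had 1351 to 2038 CPM in KO libraries, against 2473 and 3177 CPM in WT (-0.85 ± 0.17, adjusted p 0.0156), and lost its call without any of 4 KO libraries (0.0524 to 0.0631). The list's median was -1.14 without WT 1 and -0.23 without WT 2, and no member was concordant in every left-out fit. With the length offset 4 members were concordant (5.36% of all genes tested were concordant and lower), and the median was -0.38.

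The respiratory chain followed the same pattern, with 26 of 26 nuclear-encoded genes negative, a median of -0.57, 9 called lower (8.08% of all genes tested) and 8 concordant (5.94%). Ndufb3, a subunit of complex I, was concordant in every left-out fit, with 25.7 to 36.7 CPM in KO libraries, against 59.3 and 57.7 CPM in WT (-0.87 ± 0.17, adjusted p 0.012). Here the 2 WT libraries lay close together. Ndufa2 had 17.6 to 29.2 CPM in KO libraries, against 30.4 and 73.4 CPM in WT (-1.18 ± 0.27, adjusted p 0.0217), and -0.39 without WT 2. The list's median was -0.84 without WT 1 and -0.23 without WT 2, and Ndufb3 was the only member concordant in every left-out fit. With the length offset 3 members were concordant (5.36% of all genes tested were concordant and lower), and the median was -0.19. The median of the ATF4 list was -1.18 without WT 1 and -1.19 without WT 2, and 39 members were concordant with the length offset. The median of the 2-cell-like list was 4.11 without WT 1 and 3.99 without WT 2. With the length offset 18 of its members were concordant (4.95% of all genes tested were concordant and higher).

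**Figure D4:**
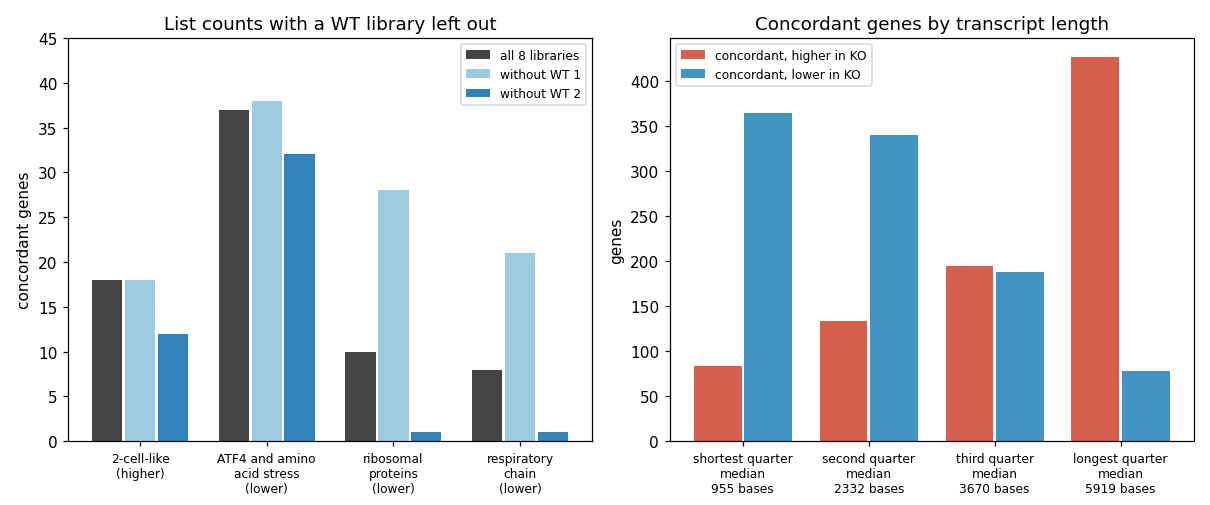
Left, number of concordant genes in 4 gene lists with all 8 libraries, without WT 1 and without WT 2. With all 8 it is 10 for ribosomal proteins and 37 for the ATF4 list, where 5.94% of all genes tested were concordant and lower. Over all genes tested too, the number was larger without WT 1 and smaller without WT 2. Right, number of concordant genes in 4 bins of transcript length, with 426 higher and 78 lower genes in the longest bin.

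Of 24 genes of glycolysis and glucose uptake, 5 were called lower, 0 higher and 3 concordant: Ldha, Pgk1 and the glucose transporter gene Slc2a1. Over all genes tested 8.08% were called lower and 5.94% were concordant and lower. The list's median was -0.77 in Dgcr8 KO, -0.07 in Drosha KO and -0.28 in Ago1_2 KO. Against WT 9 members were called lower in Dgcr8 KO (4.48% of all genes tested), 0 in Drosha KO (4.83%) and 1 in Ago1_2 KO (7.38%). Called higher were 0 in Dgcr8 KO (2.45%), 1 in Drosha KO (6.54%) and 2 in Ago1_2 KO (10.2%). Slc2a1 was not called in Ago1_2 KO alone (-0.255, edgeR adjusted p 0.363). Ldha, which makes lactate, had 523 to 686 CPM in KO libraries, against 877 and 1213 CPM in WT (-0.83 ± 0.17, adjusted p 0.017), and Slc2a1 had 99.1 to 189 CPM in KO libraries, against 205 and 218 CPM in WT (-0.63 ± 0.15, adjusted p 0.0258). None of the 3 was concordant in every left-out fit. Of 17 genes of the hypoxia response 1 was called higher, Kdm3a, and 3 lower, Vegfa, Ddit4 and Slc2a1, with a median of -0.24, where 6.49% of all genes tested were called higher and 8.08% lower. Kdm3a, a histone demethylase gene, rose to 353 to 468 CPM in KO libraries, against 210 and 159 CPM in WT (1.18 ± 0.19, adjusted p 0.00656), in every left-out fit. Of 22 genes of the endoplasmic reticulum and its unfolded protein response 2 rose, Dnajb9 and Calr, and 2 fell, Herpud1 and Sec61b, all concordant, where 5.14% of all genes tested were concordant and higher and 5.94% lower. Herpud1, a gene of protein degradation at that organelle, had 13.4 to 21.5 CPM in KO libraries, against 42.6 and 35.0 CPM in WT (-1.19 ± 0.19, adjusted p 0.00623), while the chaperone gene Dnajb9 had 22.3 to 27.5 CPM in KO libraries, against 13.7 and 10.3 CPM in WT (1.09 ± 0.20, adjusted p 0.0112). The 2 genes moved in opposite directions, and Herpud1 alone of the 4 was concordant in every left-out fit. Of 28 lysosome and autophagy genes edgeR called 0 (14.6% of all genes tested), DESeq2 called 1 and limma-voom 0. In edgeR 6 had an unadjusted p under 0.05, beside 5703 of all 16388 genes tested. The median log2 fold change of the 28 was -0.13, and it was -0.23 without WT 1 and 0.03 without WT 2.

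Of 33 imprinted genes, which are expressed from a single parental copy, 5 were called higher and 4 lower, and 5 higher and 2 lower ones were concordant. The shares of all genes tested were 6.49% called higher, 8.08% called lower, 5.14% concordant and higher and 5.94% concordant and lower, and the lower concordant share of the imprinted genes was near that. Peg10, a retrotransposon-derived gene, had 156 and 163 CPM in Dgcr8 KO, 58.9 and 41.0 CPM in Drosha KO and 39.5 and 24.5 CPM in Ago1_2 KO, against 12.5 and 4.64 CPM in WT (2.89 ± 0.39, adjusted p 0.00339, and 3.79 without WT 1). Peg3, a zinc finger gene, had 98.8 and 105 CPM in Dgcr8 KO, 69.2 and 41.0 CPM in Drosha KO and 113 and 91.4 CPM in Ago1_2 KO, against 32.1 and 19.2 CPM in WT (1.70 ± 0.27, adjusted p 0.00654). The noncoding RNA gene Kcnq1ot1 had 34.5 and 30.1 CPM in Dgcr8 KO, 7.49 and 6.47 CPM in Drosha KO and 11 and 15.4 CPM in Ago1_2 KO, against 5.25 and 3.58 CPM in WT (1.70 ± 0.26, adjusted p 0.00532). Every KO library lay above WT for these genes, as the rule for concordant genes asks, and Peg10 and Kcnq1ot1 were highest in Dgcr8 KO. Nespas rose by 3.31 ± 0.39 (adjusted p 0.00207). It runs antisense to Gnas, which fell by 0.74 ± 0.16 (adjusted p 0.0192), and no source used here states whether counting used the strand, so both values are uncertain.

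Of 31 genes of interferon response and RNA sensing, 6 were called higher and 1 lower, and 3 were concordant and higher, beside 6.49%, 8.08% and 5.14% of all genes tested. The list's median was -0.37 in Dgcr8 KO, 0.79 in Drosha KO and 0.84 in Ago1_2 KO. In Dgcr8 KO 0 members were called higher (2.45% of all genes tested) and 3 lower (4.48%). Called higher were 10 in Drosha KO (6.54%) and 13 in Ago1_2 KO (10.2%), with 0 lower in either (4.83% and 7.38%). Mavs, the adaptor of cytosolic RNA sensors, had 57.1 and 65.4 CPM in Dgcr8 KO, 119 and 125 CPM in Drosha KO and 122 and 146 CPM in Ago1_2 KO, against 54.5 and 49.7 CPM in WT (0.94 ± 0.16, adjusted p 0.00759, among KO genotypes 0.0076). Irf9, a transcription factor gene of the response, had 36 to 46.2 CPM in KO libraries, against 25.1 and 25.9 CPM in WT (0.71 ± 0.15, adjusted p 0.0187), and lost its call without any Dgcr8 KO or Ago1_2 KO library (0.0602 to 0.0713). Of 14 genes of class I antigen presentation, 0 were called higher and 1, H2-K1, lower (8.08% of all genes tested). Log2 fold changes were positive for 7 and negative for 7, with medians of -0.99 in Dgcr8 KO, 0.84 in Drosha KO and 0.605 in Ago1_2 KO. Against WT 4 were called lower in Dgcr8 KO (4.48% of all genes tested), 3 higher in Drosha KO (6.54%) and 2 higher in Ago1_2 KO (10.2%). H2-K1, a class I histocompatibility gene, had 2.27 and 1.65 CPM in Dgcr8 KO, 9.82 and 8.45 CPM in Drosha KO and 7.36 and 8.68 CPM in Ago1_2 KO, against 15.7 and 11 CPM in WT (-1.35 ± 0.24, adjusted p 0.00915). Of 29 genes of extracellular matrix and adhesion, 6 were called higher and 2 lower, and 5 higher and 1 lower were concordant. The lower calls were no more frequent than over all genes tested (8.08% called and 5.94% concordant), where 6.49% were called higher and 5.14% were concordant and higher. Lama5, a laminin chain gene, had 182 to 411 CPM in KO libraries, against 149 and 170 CPM in WT (0.94 ± 0.18, adjusted p 0.0131), whereas the laminin chain gene Lama1 had 46.1 to 125 CPM in KO libraries, against 203 and 208 CPM in WT (-1.35 ± 0.27, adjusted p 0.015, and 0.0875 without WT 2).

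Of 28 genes of DNA replication and mitosis, 3 were called and concordant, all lower, where 8.08% of all genes tested were called lower and 5.94% were concordant and lower. Ccnb2, a mitotic cyclin gene, had 97.8 and 109 CPM in Dgcr8 KO, 70.1 and 80.6 CPM in Drosha KO and 69.9 and 66.2 CPM in Ago1_2 KO, against 152 and 173 CPM in WT (-1.01 ± 0.14, adjusted p 0.00352), in every left-out fit. The replication helicase genes Mcm6 and Gins2 changed by -0.77 ± 0.16 and -0.91 ± 0.18 (adjusted p 0.0171 and 0.0148), and each call ended when any of 3 libraries was left out. Of 27 genes of G1 to S control, 3 were called higher, Lats1, Lats2 and Rb1, and 0 lower, and the Lats genes were concordant. These counts stand beside 6.49% called higher and 5.14% concordant and higher over all genes tested. Lats1 had 38.2 to 50.6 CPM in KO libraries, against 31.0 and 19.4 CPM in WT (0.80 ± 0.21, adjusted p 0.0359), and its call ended when any of 6 libraries was left out (0.0557 to 0.169). Of 26 p53 and apoptosis genes 2 were called lower, no larger a share than the 8.08% of all genes tested, and Bbc3, the gene of the BH3-only protein PUMA, was concordant (-1.05 ± 0.22, adjusted p 0.0159, and 0.0971 without WT 2).

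**Figure D5:**
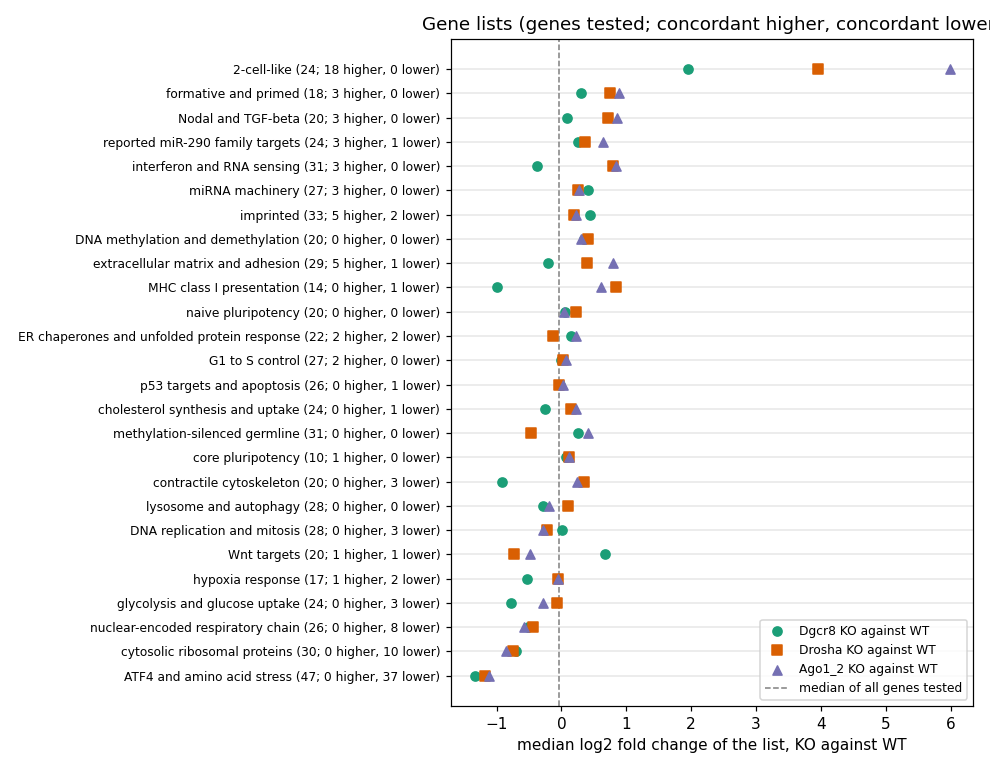
Median log2 fold change against WT of each gene list of 10 or more tested genes in each KO genotype, with the number of genes tested and of concordant genes after the name and the median of all genes (-0.035) as a dashed line. The points of the 3 KO genotypes lie together for the ATF4 list (-1.34, -1.17 and -1.11) and apart for the 2-cell-like list (1.95, 3.95 and 5.99).

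Markers of other cell types were summed per library. The 8 fibroblast markers summed to 1.02 to 8.90 CPM in KO libraries and to 2.43 and 2.27 CPM in WT, with Twist2 at 0 in all libraries, and the 8 primitive endoderm markers to 5.78 to 10.6 CPM and 4.57 and 4.79 CPM. Trophectoderm markers summed to 50.1 to 114 CPM in KO libraries and to 101 and 90.2 CPM in WT, and mesoderm markers to 6.74 to 79.0 CPM and 31.4 and 44.8 CPM. Neural markers summed to 32.1 and 36.4 CPM in WT, with Neurog2 at 0 in all libraries. They summed to 16.4 and 18.3 CPM in Dgcr8 KO, 57.5 and 38.3 CPM in Drosha KO and 78.1 and 85.4 CPM in Ago1_2 KO. Of 4 neural markers tested 2 had positive and 2 negative log2 fold changes, and 2 were called higher and concordant (Pax6 and Tubb3) and 0 lower. Over all genes tested, 6.49% were called higher, 8.08% were called lower and 5.14% were concordant and higher. Against WT, 2 were called lower in Dgcr8 KO (4.48% of all genes tested). In Drosha KO 2 were called higher (6.54%) and in Ago1_2 KO 2 (10.2%). Pax6, a transcription factor gene, had 0.369 and 0.381 CPM in Dgcr8 KO, 1.76 and 0.853 CPM in Drosha KO and 11.3 and 9.43 CPM in Ago1_2 KO, against 0.226 and 0.193 CPM in WT (3.0 ± 0.50, adjusted p 0.0071, and 0.0551 without WT 2). Its level was highest in the Ago1_2 KO libraries, and whether any library held cells of another type was not tested. Of 4 mesoderm markers tested 1 was called higher, Kdr (6.49% of all genes tested), and 2 lower (8.08%), with a median of -0.69. Kdr, the gene of a receptor for vascular growth factor, had 3.64 and 2.35 CPM in Dgcr8 KO, 4.14 and 1.63 CPM in Drosha KO and 14.9 and 13.8 CPM in Ago1_2 KO, against 0.734 and 0.435 CPM in WT (3.09 ± 0.50, adjusted p 0.00641, and 0.0581 without WT 2). Of 5 trophectoderm markers tested 2 were called lower (8.08% of all genes tested) and 0 higher, and 1 was concordant and lower (5.94%). Krt18, a keratin gene of trophectoderm, fell in every left-out fit and had 1.32 to 7.09 CPM in KO libraries, against 10.6 and 11 CPM in WT (-1.72 ± 0.27, adjusted p 0.0058).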

How the data were processed

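The deposited values are raw counts for each gene in 8 libraries of polyadenylated RNA, made with a TruSeq kit and a reverse-stranded protocol per the labels. Reads were aligned with STAR 2.4.2a to mm10 (GRCm38), per the submitters' processing notes. Neither the counting tool, nor its strand setting, nor its annotation is named in the sources used here. No count column was left unused (0).

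A symbol was found for 47224 of 47643 genes, and the GENCODE M21 version was identical for 39106. Genes were filtered with filterByExpr by genotype and scaled by TMM in edgeR 4.0.16 (R 4.3.3). One mean per genotype was fitted to the 8 libraries, with 4 residual degrees of freedom. The mean of the KO genotypes was tested against WT with its robust quasi-likelihood test. Benjamini-Hochberg adjustment ran over all genes tested. Equality of the KO means was tested in the same fit. CPM were computed from the deposited counts with TMM-scaled library sizes. Errors of fold changes are standard errors.

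The genes with the widest gap were the 15 in each direction with the largest smallest log2 ratio over the 12 pairs of a KO and a WT library (prior count 2), with a mean of 5 CPM or more in KO or WT and no predicted-gene symbol. From each list, up to 4 members by p-value were named, with the targeted genes and 5 genes for a difference among KO genotypes. Further list members were named after their values were seen, and some genes that met the rule are not reported here. The members, lists and tests were chosen with earlier results of these data known. The 33 lists were described by counts and medians, with no set test. Alternatives were DESeq2 1.42.0, its size factors, library size only, limma-voom (limma 3.58.1), other filters, the replicate number as a block, a GC offset, a 1.5-fold limit, a single KO mean, and each library or KO genotype left out. An offset for transcript length was added after the data were seen. The steps were tested on simulated data. Python 3.11.15 with pandas 2.3.3, numpy 2.4.6 and matplotlib 3.10.9 served outside R.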

Additional observations from a re-analysis of the deposited data

Results flagged for a closer look

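The results below are those named above whose level differed among the 3 KO genotypes in edgeR's quasi-likelihood F test of equal KO means, each with its adjusted p. Among the genes with the widest gap these were Tmem92 (0.00305), Zscan4b (0.000722), Zscan4f (0.000441), Tll1 (0.0033), Usp17lc (0.00138), Zscan4d (0.000908), Cyyr1 (0.0352), Tgtp1 (0.0174) and Ak7 (0.00196), all higher in KO, and Ddit4 (0.00668), lower in KO. Among the listed genes they were Dgcr8 (0.000952), Lefty1 (0.0127), Lats2 (0.028), Zscan4c (0.000722), Lama5 (0.0323), Mavs (0.0076), H2-K1 (0.00586), Nespas (0.00594), Peg10 (0.00869) and Kcnq1ot1 (0.0033). Among markers of other cell types they were Krt18 (0.0152), Pax6 (0.000919), Tubb3 (0.0119) and Kdr (0.00962). Smyd1 (0.000397), the predicted gene Gm21761 (0.000661) and Mir24-1 (0.00072) were chosen for this difference, so their values are a description. The order of the genotypes was not the same in all of them: Peg10 was highest in Dgcr8 KO, Lats2 in Drosha KO and Zscan4f in Ago1_2 KO. No group has more than 2 libraries, so single libraries were not tested for standing apart.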

How the results depend on the processing

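Genes called higher numbered 1064, against 1727 with DESeq2, 1913 with no filter on low counts, 1863 with the replicate block, 32 with a single KO mean, 262 with a 1.5-fold limit, 1873 leaving Dgcr8 KO out and 486 leaving Ago1_2 KO out, and 339 to 2405 with a library left out. Genes called lower numbered 1324, against 2395 with no filter, 2078 with the replicate block, 88 with a single KO mean, 201 with the limit and 608 leaving Ago1_2 KO out, and 358 to 2315 with a library left out. Concordant higher genes made up 5.14% of genes tested, against 0.195% with a single KO mean, 1.42% with the limit, 11% leaving Dgcr8 KO out and 2.81% leaving Ago1_2 KO out, and 1.77% to 13.2% with a library left out. Concordant lower genes made up 5.94%, against 0.537%, 1.09%, 10.6% and 3.19% in the same settings and 1.85% to 13% with a library left out. Genes that differed among KO genotypes numbered 2767, against 4440 with no filter and 405 to 4185 with a library left out. The miR-294 difference of 0.269 was 0.086 with the length offset, 0.214 with the GC offset and 0.134 to 0.408 with a library left out, and that of let-7 was -0.012 with the length offset. Named genes that were not called changed sign in places. Drosha was at 0.17 leaving Drosha KO out. Ago2 was at -0.20 with the length offset, -0.17 leaving Drosha KO out and -0.04 (without WT 2) to 1.0 with a library left out. Thy1 was at -0.06 and Col1a1 at -0.20 leaving Ago1_2 KO out. Dab2 was at -0.09 with the length offset, -0.32 leaving Ago1_2 KO out and -0.25 to 0.32 with a library left out. Cdx2 was at 1.14 with a single KO mean, and with a library left out Cdx2 lay at -3.12 to 0.64, Krt8 at -1.07 to 0.10, Tbx6 at -0.51 to 0.27 and Pou5f1 at -0.61 to 0.14. Nes was at 0.06 leaving Dgcr8 KO out. Tbx6 was at 0.01 with the GC offset, 0.12 with the length offset and 0.11 leaving Dgcr8 KO out, and Pou5f1 at 0.07 with the length offset. The cause was not tested in any of these. The log2 ratio of library 1 to library 2 correlated at 0.0963 to 0.245 between genotypes, positive for every pair of genotypes. The main fit did not pair libraries by number, and whether the numbers pair them was not tested. With the replicate number as a block, 2458 genes were concordant, beside 1815. With 2 WT libraries, every result depends on the distance between them.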
